A study of Fagopyrum tataricum with 9 samples.

Results

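The seeds of Tartary buckwheat (Fagopyrum tataricum) of the easily dehulled variety MIQIAO 1 were compared at the discoloration stage, 19 days post anthesis, and at the green fruit stage, 13 days post anthesis. All genes with counts in the 3 green fruit and 3 discoloration libraries were taken, which gave 29865 of the 33931 genes in the deposited table and 6 of its 9 libraries. A filter on low counts left 23631 genes that were tested. The plants were field-grown, untreated and of 1 variety, and whole seeds were sampled, so hull, seed coat, endosperm and embryo contributed to each library. The stage names carry no day in the labels, so each day was assigned by the order of development. Each individual plant gave seeds of all 3 stages, and 3 plants served as replicates, but no label links a library to its plant. The p-values thus cover library-to-library spread, part of which may be technical. Gene names below are best Swiss-Prot matches, and chromosomes are those of the deposited gene descriptions, for which the sources used here name no genome build. In whole seeds, fewer cells of a type and less RNA per cell cannot be told apart.

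A seed first builds its tissues by cell division and expansion, and sugar arriving from the mother plant is turned into starch, storage protein and oil. Later it prepares to survive drying, a phase that in Arabidopsis is run by the B3 and NF-Y regulators and by abscisic acid, and that brings late embryogenesis abundant (LEA) proteins, small heat shock proteins and raffinose sugars. Chloroplasts of green seeds are dismantled over the same time. Tartary buckwheat seeds are known for their flavonols.

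The libraries held 21585045 to 26777643 counts. Replicates did not scatter evenly. Green fruit libraries 2 and 3 were close to each other, with a chi-square of 2.56 per degree of freedom over genes, whereas library 1 stood apart from them at 255 and 232. Discoloration libraries 2 and 3 gave 1.98, and library 1 gave 42.9 and 42.5 against them. Because the close pairs may share material, each call was also made with libraries 2 and 3 of a stage added together as 1 library. At initial maturity, the last stage, the close pair was libraries 1 and 3. That setting is written below as "with pairs added", and it left 1717 genes higher (6.99% of 24572 tested) and 1160 lower (4.72%). Another setting left out the libraries that stand apart: library 1 of green fruit, library 1 of discoloration and library 2 of initial maturity. In green fruit, library 1 lay nearer to the discoloration libraries than the mean of libraries 2 and 3 did for 65.1% of the genes that rose and 61.1% of those that fell. Of the genes that fell, 1080 were at least 2-fold lower and 536 at least 2-fold higher in that library than in both others. Its part in the results was not tested beyond the settings named below.

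Between the stages 9326 genes, 39.5% of those tested, passed an adjusted p of 0.05 in edgeR's quasi-likelihood test with Benjamini-Hochberg adjustment. Of all genes tested, 4615 or 19.5% were higher and 4711 or 19.9% lower at discoloration, and the median log2 fold change was -0.04. The words rose and fell are used below for these calls alone. Changes covered a wide range of sizes: 1515 risers and 1340 fallers moved by under 1 on the log2 scale, 1546 and 1711 by 1 to 2, 1272 and 1414 by 2 to 5, and 282 and 246 by 5 or more. Levels before and after are shown in the plot of mean levels. Genes that rose held 19.3 ± 5.47% of the counts of a green fruit library and 63.8 ± 0.824% at discoloration (mean ± SD, n = 3). Genes that fell went from 23.5 ± 4.29% to 4.05 ± 0.274%. The 18 storage protein and oleosin genes held 5.9 ± 3.91% and 28.3 ± 0.829%, and the risers outside that list held 14.5 ± 2.4% and 37.8 ± 0.252%. Risers and fallers were chosen by their levels in these same libraries. The direction of their shares thus follows largely from the calls, and the shares are a description. The shift in composition makes the scaling matter: levels here are CPM, counts scaled to library size and TMM factors. Scaling by library totals alone moved the median of all genes from -0.04 to -1.03 and left 1830 genes higher and 16137 lower.

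**Figure D1:**
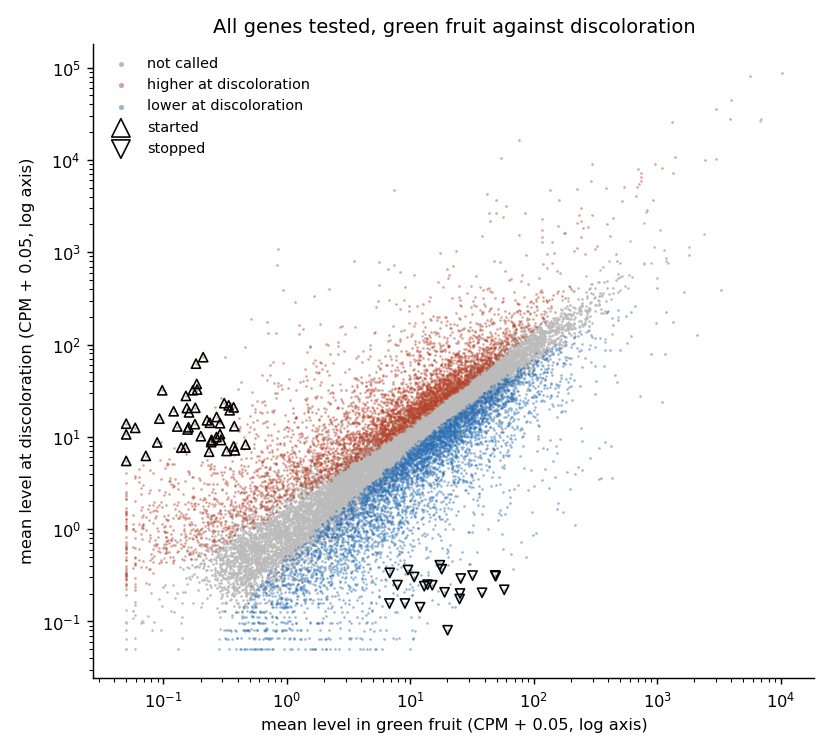
Mean level of each tested gene in green fruit (x axis, CPM plus 0.05, log scale) against its mean level at discoloration (y axis, same scale), n = 3 libraries each. Red and blue points are the 4615 higher and 4711 lower genes, grey points were not called, and open triangles mark the 45 genes that started and the 22 that stopped.

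The kinds of counts that grew and shrank are shown in the plot of shares by group of gene lists. These are shares of a library's total counts without TMM factors, unlike the CPM levels given elsewhere. Defence lists held 1.57 ± 0.571% of the counts in green fruit and then 8.37 ± 0.293% at discoloration, and desiccation and folding lists 1.56 ± 0.241% and then 3.93 ± 0.206%. Gene expression lists, which include ribosomal proteins, held 7.61 ± 1.97% and then 3.47 ± 0.338%, and chloroplast lists 1.78 ± 0.807% and then 0.346 ± 0.0124%. On the TMM scale the gap was smaller for cytosolic ribosomal proteins. Their sums were 29558 ± 15351 CPM in green fruit and 24720 ± 2924 CPM at discoloration, and overlapped between the stages. The first green fruit library was apart in several groups: its chloroplast share of 0.851% lay below the 2.22% and 2.27% of libraries 2 and 3. The libraries of the discoloration stage were close to each other in each group.

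**Figure D2:**
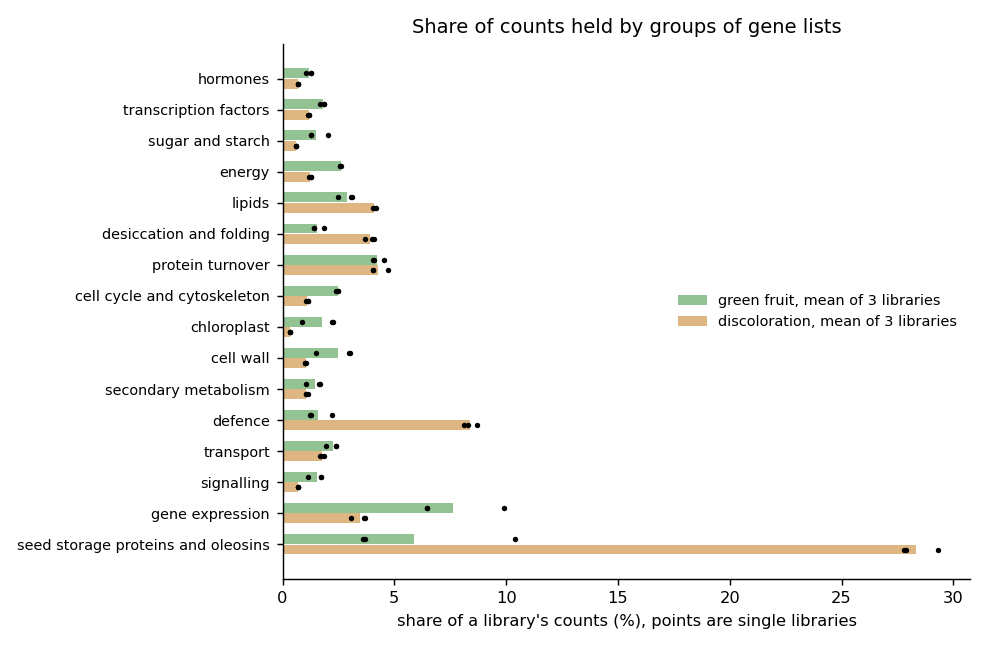
Share of a library's total counts, without TMM factors, in percent (x axis) held by 15 groups of gene lists and by storage proteins with oleosins. Bars are means of 3 libraries per stage and points are single libraries; storage proteins and oleosins went from 5.9% to 28.3% and gene expression lists from 7.61% to 3.47%.

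Markers of tissues that whole seeds can hold moved too, and their part in the results below was not tested. Storage protein and oleosin genes, markers of the filling seed, rose in 16 of 18, and in 2 of 18 with pairs added. Of vascular names 11 of 25 tested rose and 2 fell (4 and 14 on library totals), and their summed level was 156 ± 13.6 CPM in green fruit and 222 ± 4.95 CPM at discoloration (mean ± SD, n = 3). Pollen and anther names, which mark remains of the flower, had 1 of 11 risen and 5 fallen (1 and 1 with pairs added), with sums of 297 to 376 CPM in green fruit libraries and 201 to 224 CPM at discoloration. Names with endosperm or embryo in them summed to 180 to 251 CPM and 219 to 231 CPM, and no such sum was near 0. Leaf photosynthesis markers fell in 15 of 21 and rose in none, with sums of 1663, 3679 and 3890 CPM in green fruit and 608, 865 and 858 CPM at discoloration.

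Small sets of genes went from under a low level threshold to a high one between the stages, or the reverse. The words started and stopped name these sets, and a switch was not tested. Started genes were under 0.5 CPM in every green fruit library and at 5 CPM or more in every discoloration library, and there were 45 of them. Their sums were 10.1, 5.79 and 5.92 CPM in green fruit and 801, 752 and 775 CPM at discoloration, with single means of 5.44 to 73 CPM at discoloration. At initial maturity 41 of the 45 were still at 5 CPM or more in every library and none had gone back under 0.5 CPM. Without green fruit library 1 the same thresholds gave 115 started genes. The 2 thresholds chose these genes, so their levels are a description and no fold change is tested for them.

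Small heat shock proteins, chaperones that hold unfolding proteins in solution, made up 8 of the 45. The 18.8 kDa class II heat shock protein (FtPinG0005014000.01 on chromosome 2) stood at 0.33, 0.0204 and 0.051 CPM in green fruit and 62.2, 58.9 and 65.1 CPM at discoloration. All green fruit libraries were close to 0 and the discoloration libraries lay within a narrow band. The 17.8 kDa class I protein (FtPinG0002238800.01 on chromosome 8) had 0.138, 0.143 and 0.128 CPM in green fruit and 33.1, 40.1 and 39 CPM at discoloration. The 17.5 kDa class I protein (FtPinG0003334500.01 on chromosome 8) had 0.0825, 0.0612 and 0 CPM in green fruit and 43.7, 27 and 25 CPM at discoloration, with discoloration library 1 the highest, and went on to 234, 320 and 243 CPM at initial maturity.

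Regulators and enzymes of specialised metabolism were the other started genes named by level. PIF3 (FtPinG0002714200.01 on chromosome 6), a helix-loop-helix factor that acts under phytochrome in Arabidopsis, stood at 0.22, 0.0612 and 0.0255 CPM in green fruit and 41.6, 21.5 and 20.1 CPM at discoloration, library 1 being the highest of both stages. Its relative bHLH69 (FtPinG0007946400.01 on chromosome 5) stood at 0.248, 0.122 and 0 CPM in green fruit and 30, 32.2 and 33.6 CPM at discoloration, and at 104, 253 and 102 CPM at initial maturity it was higher again. The best match to 3,7-dimethylxanthine N-methyltransferase, a caffeine enzyme of coffee (FtPinG0005050000.01 on chromosome 8), had 0.22, 0.0816 and 0.179 CPM in green fruit and 34.8, 91.4 and 92.7 CPM at discoloration, and here discoloration library 1 was the lowest of its stage. The match names an enzyme family of small-molecule methyltransferases and not its substrate in buckwheat.

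Other started genes, chosen after their values were seen, included 2 lupeol synthases and a sesquiterpene synthase, which make triterpenes and sesquiterpenes, 2 spermidine hydroxycinnamoyl transferases, which attach phenolic acids to spermidine, and 2 oxophytodienoate reductases, a family that includes an enzyme of jasmonate synthesis. NLP8, a nitrate-responsive factor that promotes germination in Arabidopsis, went from 0.248, 0.0816 and 0 CPM to 17.9, 9.11 and 10.9 CPM. The first lupeol synthase (FtPinG0001570000.01) went from 0.275, 0.0612 and 0.0766 CPM to 38.4, 27.8 and 31.2 CPM. Cytochrome P450 76AD1, a betalain enzyme in beet, had no count in green fruit and 16.7, 8.17 and 6.91 CPM at discoloration, 660 counts in all. Of the 45 started genes 34 had a Swiss-Prot match and 7 were genes of the authors' own annotation.

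Stopped genes, the reverse case, numbered 22, and their sum went from 352, 539 and 549 CPM to 2.45, 4.8 and 6.07 CPM. The thresholds chose these genes, so the gap between these sums follows from the rule and is a description. At initial maturity, 20 of the 22 genes stayed under 0.5 CPM in every library. Without green fruit library 1, 81 genes met the thresholds.

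The GDSL esterase/lipase At5g45950 (FtPinG0001217800.01 on chromosome 3), of a family of secreted lipid hydrolases, had 28.7, 71.3 and 73.1 CPM in green fruit and 0.051, 0.133 and 0.327 CPM at discoloration. ECERIFERUM 1 (FtPinG0009513400.01 on chromosome 7), which makes the alkanes of cuticular wax in Arabidopsis, had 13.5, 66.8 and 67.4 CPM in green fruit and 0.051, 0.4 and 0.327 CPM at discoloration. In both genes green fruit library 1 was the lowest of its stage and still far above discoloration. Another of the 3 tested genes matching ECERIFERUM 1 (FtPinG0005620900.01) rose. Fasciclin-like arabinogalactan protein 2, a wall glycoprotein (FtPinG0001194000.01 on chromosome 8), had 5.31, 43.9 and 46.6 CPM in green fruit and 0.153, 0.266 and 0.374 CPM at discoloration, a drop that was smallest against green fruit library 1.

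Proline-rich protein 4 (FtPinG0003462700.01 on chromosome 6), a structural wall protein, had 27.5, 40.8 and 46.1 CPM in green fruit and 0.051, 0.133 and 0.28 CPM at discoloration, with the green fruit libraries within 2-fold of each other. Early nodulin-like protein 2, a membrane-anchored copper-protein relative (FtPinG0007200500.01 on chromosome 7), had 32.4, 13.9 and 13.8 CPM in green fruit and 0, 0.0444 and 0.0467 CPM at discoloration. It was the named stopped gene with green fruit library 1 on top. GAST1 of tomato, a gibberellin-induced secreted peptide (FtPinG0006327900.01 on chromosome 1), had 12.7, 31.7 and 31.4 CPM in green fruit and 0, 0.266 and 0.187 CPM at discoloration. Among the rest, named after their values were seen, were xyloglucan endotransglucosylase 6, a glucuronosyltransferase of xylan, endoglucanase 17, peroxidase 72, which acts in lignification in Arabidopsis, SPL8 and a second GDSL esterase.

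In the functional lists, 46 of 97 had more risers than fallers, 47 had more fallers and 4 as many of each. On library totals 5 of the 46 kept more risers (small heat shock proteins, LEA and dehydrin, glutathione transferase, chitinases, and antimicrobial and pathogenesis-related proteins), and all 47 kept more fallers. With pairs added 43 of the 46 and 28 of the 47 kept their balance, and without the libraries that stand apart 41 and 38 did. Call counts and summed levels are different quantities and can go opposite ways, as given below for chitinases, histones, cyclins and aquaporins. Below, the risers and fallers under those settings stand in brackets for the lists most discussed and for any list described whose balance did not hold. They are read against the 19.5% of all genes that rose and the 19.9% that fell. A single gene named by rule had to have 3 libraries of one stage all above the 3 of the other, so that separation is not a finding. The extremes are shown in the plot of lists.

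**Figure D3:**
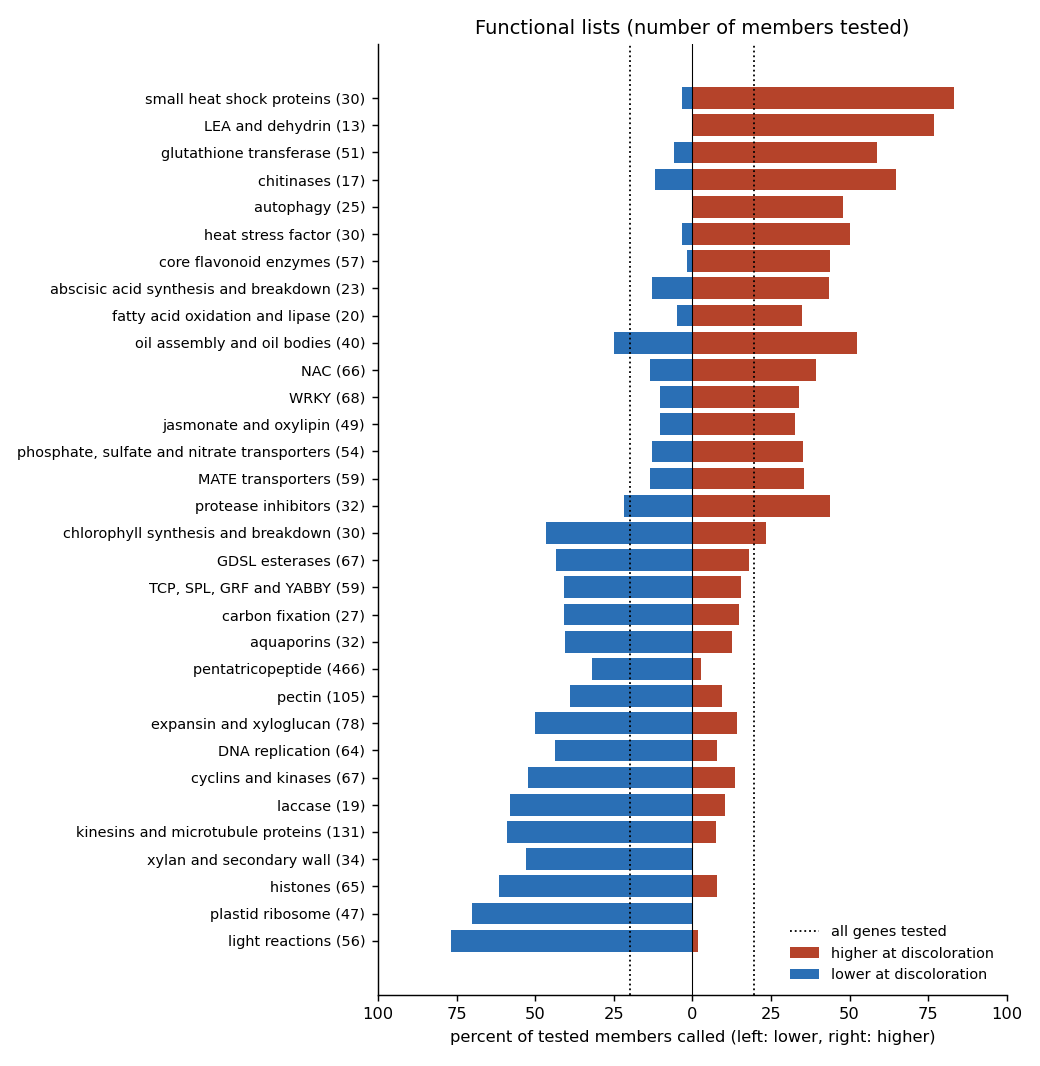
Percent of tested members called higher (bars to the right) and lower (bars to the left) at discoloration for the 32 functional lists with the largest excess of either; numbers in brackets are members tested, and dotted lines mark the 19.5% and 19.9% of all genes. Small heat shock proteins (83.3% higher) and light reactions (76.8% lower) are at the ends; of the 46 lists with more risers, 5 keep this on library totals.

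Abscisic acid, the hormone of seed maturation and dormancy, had its own synthesis and breakdown genes on the move: 10 of 23 tested rose and 3 fell, with a median log2 fold change of 0.94 (6 and 0 with pairs added, 5 and 6 on library totals). Genes named in this and the next paragraph, phosphatase 2C 24 excepted, were chosen after their values were seen. Zeaxanthin epoxidase, which makes an early precursor, was the best match of 5 tested genes, of which 2 rose and 1 fell. The steepest riser (FtPinG0003978100.01 on chromosome 3) had 1.93, 1.82 and 2.14 CPM in green fruit and 14.8, 23.2 and 23 CPM at discoloration. The discoloration libraries were all well above the narrow green fruit band (log2 fold change 3.38, SE 0.23, adjusted p 2.17e-05). The faller (FtPinG0006344400.01 on chromosome 6) had 4.81, 19.6 and 19.4 CPM in green fruit and 3.78, 5.06 and 5.47 CPM at discoloration (log2 fold change -1.61, SE 0.46, adjusted p 0.0203, 0.189 with pairs added and up to 0.0751 on leaving out discoloration library 1, 2 or 3, green fruit library 2 or 3). Abscisic-aldehyde oxidase (FtPinG0002397900.01 on chromosome 3), the last step of synthesis in Arabidopsis, had 27.1, 52.5 and 51.8 CPM in green fruit and 376, 166 and 156 CPM at discoloration, library 1 standing above its stage at discoloration (log2 fold change 2.41, SE 0.41, adjusted p 0.00201). Breakdown genes went both ways. Abscisic acid 8'-hydroxylase 3 (FtPinG0004462100.01 on chromosome 3) had 15.2, 55.9 and 57 CPM in green fruit and 6.48, 5.6 and 5.19 CPM at discoloration, with green fruit library 1 the lowest of its stage (log2 fold change -2.89, SE 0.56, adjusted p 0.00349, 0.0685 with pairs added). Abscisic acid 8'-hydroxylase 2 (FtPinG0002387400.01 on chromosome 3), a form that acts in Arabidopsis seeds, had 5.39, 7.28 and 8.27 CPM in green fruit and 49.8, 19.5 and 24.6 CPM at discoloration (log2 fold change 2.16, SE 0.34, adjusted p 0.00126). So the form 3 gene was lower in each discoloration library and this form 2 gene higher. A second form 2 match was not called.

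In abscisic acid perception and signalling 13 of 44 tested rose and 6 fell, with a median log2 fold change of 0.19 (10 and 22 on library totals). Protein phosphatase 2C 24 (FtPinG0006346100.01 on chromosome 6), of the family that restrains the signal, had 30.7, 12.7 and 14.2 CPM in green fruit and 196, 195 and 199 CPM at discoloration, a tight band at discoloration far above green fruit (log2 fold change 3.36, SE 0.38, adjusted p 2.68e-04). ABI5 (FtPinG0003523300.01 on chromosome 7), the bZIP factor of late embryos, had 40, 12.5 and 12.8 CPM in green fruit and 158, 131 and 124 CPM at discoloration with green fruit library 1 nearest to discoloration (log2 fold change 2.66, SE 0.44, adjusted p 0.00163). ABI5-like protein 5, a related bZIP factor, was the best match of 5 tested genes, of which 1 rose and 2 fell. The riser (FtPinG0003196200.01 on chromosome 1) had 3.91, 8.67 and 9.67 CPM in green fruit and 31, 32.9 and 34.7 CPM at discoloration, and there green fruit library 1 was the farthest (log2 fold change 2.15, SE 0.29, adjusted p 6.59e-04). Of the fallers, one (FtPinG0002143600.01 on chromosome 8) had 12.3, 28 and 27.3 CPM in green fruit and 7.96, 11.5 and 11.1 CPM at discoloration (log2 fold change -1.15, SE 0.31, adjusted p 0.0161, 0.165 with pairs added and up to 0.0625 on leaving out discoloration library 1, green fruit library 2 or 3), and the other (FtPinG0001379200.01 on chromosome 1) had 14, 1.98 and 1.45 CPM in green fruit and 0.153, 0.0444 and 0.0934 CPM at discoloration (log2 fold change -5.86, SE 1.10, adjusted p 0.00309).

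Gibberellin genes were balanced, since 10 of 33 tested rose and 10 fell, with a median log2 fold change of -0.11 (4 and 2 with pairs added, 4 and 18 on library totals). Gibberellin 20 oxidase 1 and gibberellin 3-beta-dioxygenase 1, successive enzymes on the way to active gibberellin and named after their values were seen, each had 3 tested genes that went both ways. The oxidase gene that rose (FtPinG0008198800.01 on chromosome 7) had 0.165, 0.0408 and 0 CPM in green fruit and 5.61, 1.47 and 1.82 CPM at discoloration, low in both stages, and reached 41, 83.8 and 40.4 CPM at initial maturity (log2 fold change 5.40, SE 0.85, adjusted p 0.00136). Both other oxidase genes fell. One (FtPinG0005591800.01 on chromosome 8) had 9.38, 17.2 and 17 CPM in green fruit and 6.48, 3.24 and 2.2 CPM at discoloration (log2 fold change -1.88, SE 0.43, adjusted p 0.00776, 0.116 with pairs added), and the other (FtPinG0004385200.01 on chromosome 3) had 5.01, 3.96 and 3.52 CPM in green fruit and 0.714, 2.27 and 1.35 CPM at discoloration (log2 fold change -1.51, SE 0.47, adjusted p 0.0305, 0.106 with pairs added and up to 0.0944 on leaving out discoloration library 1 or 3, green fruit library 2). The dioxygenase gene that fell (FtPinG0007560600.01 on chromosome 4) had 0.44, 4.41 and 4.59 CPM in green fruit and 0, 0 and 0.0467 CPM at discoloration, which is 412 counts against 1 count (log2 fold change -7.27, SE 1.35, adjusted p 0.00504). It was near 0 in green fruit library 1 as well. Another dioxygenase gene (FtPinG0009540700.01 on chromosome 2) rose, a call that several settings lost, with 9.02, 2.08 and 2.96 CPM in green fruit and 19.4, 10.8 and 11 CPM at discoloration (log2 fold change 1.55, SE 0.55, adjusted p 0.0488, 0.2 with pairs added and up to 0.158 on leaving out discoloration library 1, 2 or 3, green fruit library 2 or 3, last-stage library 1 or 3, log2 0.63 on library totals). Gibberellin-regulated protein 6 (FtPinG0006350100.01 on chromosome 4), a small secreted peptide, had 63.2, 345 and 332 CPM in green fruit and 6.99, 9.42 and 10.7 CPM at discoloration, so that green fruit library 1 was far below its stage but above discoloration (log2 fold change -4.77, SE 0.63, adjusted p 5.70e-04).

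Auxin genes fell more often than they rose, as 20 of 119 tested rose and 43 fell, with a median log2 fold change of -0.47. IAA9, a repressor of auxin response (FtPinG0009368700.01 on chromosome 8), had 110, 139 and 140 CPM in green fruit and 52.2, 62.9 and 64.5 CPM at discoloration (log2 fold change -1.12, SE 0.17, adjusted p 0.00132, 0.0588 with pairs added). SAUR32, of the small auxin-up RNA family (FtPinG0002363800.01 on chromosome 3), went the other way, with 30.1, 10.6 and 12.2 CPM in green fruit and 63.1, 59.3 and 57.5 CPM at discoloration (log2 fold change 1.77, SE 0.35, adjusted p 0.00408, 0.0677 with pairs added). Among green fruit libraries, number 1 lay above its stage here. In ethylene synthesis and signalling 13 of 52 tested rose and 7 fell (8 and 31 on library totals), and in jasmonate and oxylipin genes 16 of 49 tested rose and 5 fell (9 and 22 on library totals).

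Matches to homologs of the ethylene-forming oxidase, whose own activity is not known to be that of the enzyme, also split. Homolog 6 (FtPinG0004737100.01 on chromosome 1) had 25.7, 12 and 13.6 CPM in green fruit and 209, 191 and 189 CPM at discoloration (log2 fold change 3.52, SE 0.30, adjusted p 7.05e-05). The discoloration libraries agreed closely and all were far above green fruit. Homolog 1 (FtPinG0003421300.01 on chromosome 6) had 48.4, 43.2 and 44.2 CPM in green fruit and 34.6, 36.1 and 32.8 CPM at discoloration, a difference that several settings did not call (log2 fold change -0.39, SE 0.13, adjusted p 0.0388, 0.313 with pairs added and up to 0.143 on leaving out discoloration library 1, 2 or 3, green fruit library 2 or 3, last-stage library 1 or 3). The stages were close to each other, and each library differed little. Cytokinin genes were near the background, as 8 of 43 tested rose and 9 fell (4 and 2 with pairs added). AHP1, which relays the cytokinin signal (FtPinG0003445300.01 on chromosome 6), had 34.8, 29.6 and 28.1 CPM in green fruit and 48.3, 67.1 and 62.5 CPM at discoloration (log2 fold change 0.94, SE 0.19, adjusted p 0.00469, 0.112 with pairs added, log2 -0.03 on library totals). The gap between the stages was narrow in library 1 of each. Of brassinosteroid genes 5 of 23 tested rose and 7 fell (11 and 8 without the libraries apart), and BZR1, a factor of that pathway (FtPinG0002731500.01 on chromosome 7), had 55.5, 38.2 and 38.1 CPM in green fruit and 20.9, 23.6 and 20.7 CPM at discoloration (log2 fold change -1.02, SE 0.28, adjusted p 0.0175, 0.114 with pairs added and up to 0.0639 on leaving out discoloration library 1 or 3). Discoloration was about level and below each green fruit library.

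Regulators of seed maturation moved in both directions, as the plot of regulators by library shows. NF-YB6 (FtPinG0001408600.01 on chromosome 1) and NF-YB9 (FtPinG0006887500.01 on chromosome 2), known in Arabidopsis as LEAFY COTYLEDON1-LIKE and LEAFY COTYLEDON1 and active in young embryos, fell. NF-YB6 had 175, 11.9 and 11 CPM in green fruit and 0.51, 0.533 and 0.42 CPM at discoloration, and green fruit library 1 was far above its stage (log2 fold change -7.07, SE 1.25, adjusted p 0.00233). NF-YB9 had 37, 2.33 and 1.74 CPM in green fruit and 0.051, 0.0444 and 0.0467 CPM at discoloration, with the same library on top (log2 fold change -8.04, SE 1.67, adjusted p 0.005). Both were lower in every discoloration library than in any green fruit library. A second NF-YB6 match was not called. ABI3 (FtPinG0000367500.01 on chromosome 1), the B3 factor of seed maturation, had 69.9, 22.5 and 22.6 CPM in green fruit and 127, 130 and 137 CPM at discoloration (log2 fold change 1.78, SE 0.40, adjusted p 0.00777, 0.103 with pairs added). FUS3 (FtPinG0003428600.01 on chromosome 6), a related B3 factor, had 102, 29.8 and 29.5 CPM in green fruit and 162, 200 and 190 CPM at discoloration (log2 fold change 1.77, SE 0.45, adjusted p 0.0126, 0.141 with pairs added, log2 0.87 on library totals). Both B3 genes were lower in green fruit libraries 2 and 3 than in library 1, and higher in every discoloration library. These 4 genes were chosen after their values were seen. The NF-Y list as a whole had 4 risers and 6 fallers among 25 tested (2 and 2 with pairs added). The B3 list had 6 risers and 8 fallers among 41 tested (18 and 16 without the libraries apart).

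Among transcription factor families, heat stress factors, NAC and WRKY had the largest excess of risers. Of heat stress factors 15 of 30 tested rose and 1 fell, with a median log2 fold change of 0.65 (8 and 0 with pairs added, 9 and 12 on library totals). The 2 matches to HSFA2, a factor that drives heat shock genes in Arabidopsis, were chosen after their values were seen. The first (FtPinG0003045600.01 on chromosome 5) had 5.09, 0.51 and 0.408 CPM in green fruit and 83.6, 46.3 and 48.4 CPM at discoloration (log2 fold change 4.91, SE 0.89, adjusted p 0.00263), and the second (FtPinG0008918600.01 on chromosome 4) had 15.5, 3.73 and 3.57 CPM in green fruit and 112, 92.4 and 90.9 CPM at discoloration. In both, green fruit library 1 was above libraries 2 and 3 and every discoloration library was higher still.

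In the NAC family 26 of 66 tested rose and 9 fell, with a median log2 fold change of 0.32 (10 and 30 on library totals). NAC002 (FtPinG0002920400.01 on chromosome 2), a drought and abscisic acid responsive factor of Arabidopsis, had 71.7, 68.9 and 70.9 CPM in green fruit and 303, 307 and 306 CPM at discoloration, libraries being nearly level within each stage (log2 fold change 2.11, SE 0.22, adjusted p 1.69e-04). In the WRKY family, known for defence and stress, 23 of 68 tested rose and 7 fell, with a median log2 fold change of 0.40 (10 and 29 on library totals). AP2 and ERF factors had both many risers and many fallers, as 39 of 99 tested rose and 23 fell (23 and 48 on library totals). RAP2-3 (FtPinG0007594200.01 on chromosome 6), which acts under low oxygen in Arabidopsis, had 113, 43.3 and 43.7 CPM in green fruit and 184, 163 and 179 CPM at discoloration (log2 fold change 1.39, SE 0.36, adjusted p 0.0132, 0.157 with pairs added, log2 0.46 on library totals). Green fruit library 1 was well above libraries 2 and 3. ERF109 (FtPinG0009641900.01 on chromosome 4), a stress-induced factor there, had 17.1, 77.5 and 74.6 CPM in green fruit and 5.46, 6.88 and 6.45 CPM at discoloration and so fell in the same family (log2 fold change -3.17, SE 0.51, adjusted p 0.00154). Library 1 of green fruit was again between its stage and discoloration.

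TGA-2.1 of tobacco, a bZIP factor (FtPinG0008297500.01 on chromosome 7), had 17.2, 4.06 and 3.44 CPM in green fruit and 218, 239 and 263 CPM at discoloration, and it was one of the steepest risers named (log2 fold change 4.86, SE 0.68, adjusted p 7.65e-04). NF-YC9, a subunit of the NF-Y complex (FtPinG0002208200.01 on chromosome 8), had 126, 72 and 74.4 CPM in green fruit and 162, 166 and 162 CPM at discoloration (log2 fold change 0.85, SE 0.23, adjusted p 0.0185, 0.239 with pairs added and up to 0.07 on leaving out discoloration library 2 or 3, green fruit library 2 or 3, log2 -0.11 on library totals). In green fruit, library 1 came near to discoloration. Falling factors included RADIALIS-like 1, a small MYB-domain protein (FtPinG0005609900.01 on chromosome 1), with 578, 34.3 and 35 CPM in green fruit and 1.22, 1.24 and 0.748 CPM at discoloration. The first green fruit library was 578 CPM and libraries 2 and 3 about 35, all far above discoloration (log2 fold change -7.65, SE 1.36, adjusted p 0.00236).

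AGAMOUS, which sets carpel identity in flowers (FtPinG0002495300.01 on chromosome 1), had 160, 280 and 290 CPM in green fruit and 106, 138 and 144 CPM at discoloration (log2 fold change -0.91, SE 0.25, adjusted p 0.0173, 0.199 with pairs added and up to 0.0656 on leaving out discoloration library 1, green fruit library 2 or 3). ATHB-16, a homeobox factor of leaf growth in Arabidopsis (FtPinG0009088500.01 on chromosome 6), had 58.9, 96.7 and 94.5 CPM in green fruit and 39.3, 42.1 and 48.8 CPM at discoloration (log2 fold change -0.94, SE 0.24, adjusted p 0.0135, 0.16 with pairs added and up to 0.0518 on leaving out discoloration library 1 or 2). AGAMOUS and ATHB-16 were lower in green fruit library 1 than in libraries 2 and 3. Fallers outnumbered risers in families of growth and shape, as in the TCP, SPL, GRF and YABBY list 9 of 59 tested rose and 24 fell, with a median log2 fold change of -0.35. The MYB (15 and 69 on library totals), bHLH (7 and 3 with pairs added, 36 and 28 without the libraries apart), homeobox (25 and 24 without the libraries apart), MADS-box, GRAS (3 and 25 on library totals), and Dof and GATA (4 and 29 on library totals) lists had 15.4% to 25.6% of members higher and 20% to 21.5% lower, near the background of all genes.

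**Figure D4:**
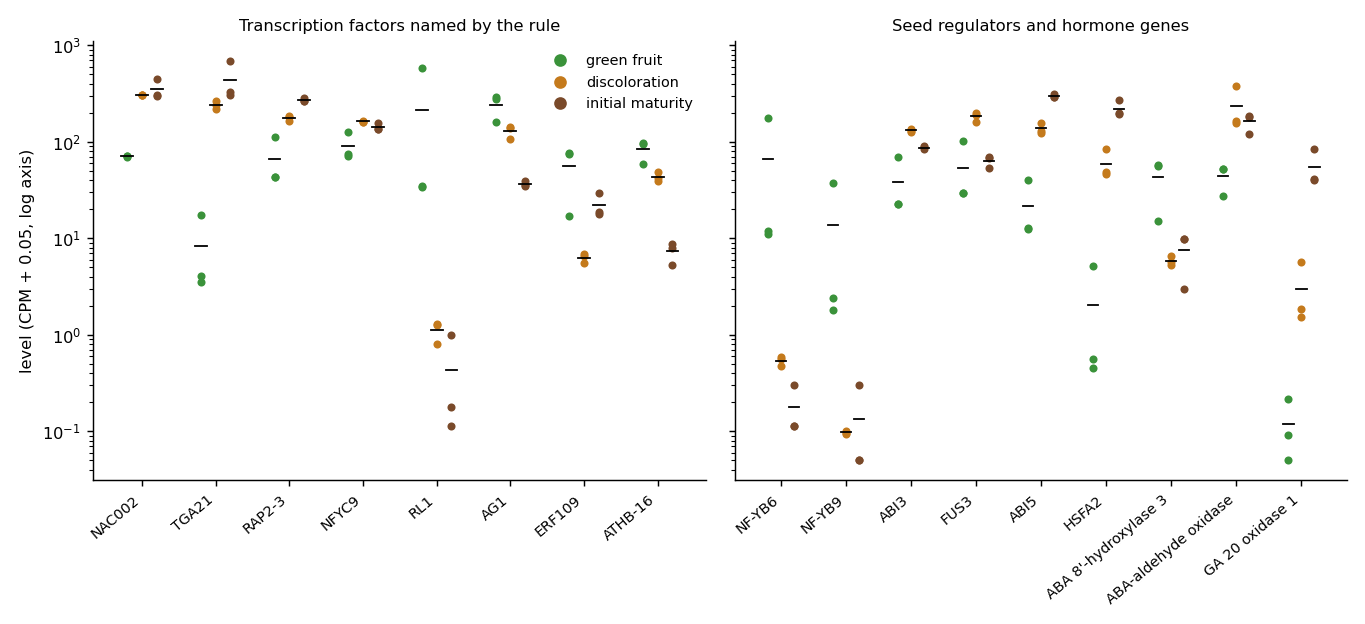
Levels by library (y axis, CPM plus 0.05, log scale) of 8 transcription factors named by rule and of 9 seed regulators and hormone genes, in green fruit, discoloration and initial maturity. Points are libraries and bars are means of 3; NF-YB6 and NF-YB9 end under 1 CPM at discoloration while ABI3, FUS3 and ABI5 are each above 100 CPM.

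Starch synthesis genes fell more often than they rose, and genes of raffinose sugars went both ways. In starch synthesis 3 of 31 tested rose and 10 fell, with a median log2 fold change of -0.59 (0 and 6 with pairs added, 0 and 26 on library totals). Granule-bound starch synthase 1 (FtPinG0009838000.01 on chromosome 4), which makes amylose, had 1165, 65 and 60 CPM in green fruit and 3.88, 2.84 and 3.78 CPM at discoloration (log2 fold change -6.94, SE 1.27, adjusted p 0.00275). Starch branching enzyme 1 (FtPinG0000080700.01 on chromosome 1), chosen after its values were seen, had 213, 13.4 and 12.1 CPM in green fruit and 0.51, 0.888 and 0.607 CPM at discoloration (log2 fold change -6.87, SE 1.26, adjusted p 0.00277). For both genes green fruit library 1 was more than 10-fold above libraries 2 and 3, and those were still far above discoloration. Of the 3 genes with this branching enzyme as best match, 2 fell and 1 rose, the riser (FtPinG0003665800.01 on chromosome 2) with 33.3, 49.4 and 47.5 CPM in green fruit and 85.7, 60.3 and 66.5 CPM at discoloration (log2 fold change 0.71, SE 0.21, adjusted p 0.0225, 0.138 with pairs added and up to 0.0776 on leaving out discoloration library 1 or 3, log2 -0.31 on library totals). Sucrose synthase (FtPinG0005125200.01 on chromosome 4), which opens sucrose for starch and wall synthesis, had 4211, 1035 and 1042 CPM in green fruit and 100, 142 and 140 CPM at discoloration with green fruit library 1 again on top (log2 fold change -4.04, SE 0.59, adjusted p 9.44e-04). Another of the 3 tested genes matching sucrose synthase (FtPinG0000680700.01) rose.

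In starch breakdown 4 of 25 tested rose and 3 fell (2 and 16 on library totals, 8 and 9 without the libraries apart). An alpha-amylase (FtPinG0005846500.01 on chromosome 7), chosen after its values were seen, had 1.18, 1.08 and 0.766 CPM in green fruit and 31.6, 22 and 20.7 CPM at discoloration and 125, 138 and 133 CPM at initial maturity (log2 fold change 4.61, SE 0.24, adjusted p 7.76e-06). Every green fruit library was low for this gene. Alpha-amylase was the best match of 5 tested genes, of which 2 rose and 0 fell. In raffinose and galactoside genes, whose products protect drying seeds, 6 of 15 tested rose and 4 fell, with a median log2 fold change of -0.12 (6 and 6 on library totals). Raffinose synthase RFS2 (FtPinG0000428300.01 on chromosome 3) had 46.2, 43.9 and 43 CPM in green fruit and 387, 379 and 369 CPM at discoloration, tight in both stages (log2 fold change 3.09, SE 0.20, adjusted p 1.85e-05).

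The first committed step of that pathway had genes, again chosen after the values were seen, that went both ways. Galactinol synthase 2 (FtPinG0002189200.01 on chromosome 8) had 4.84, 0.408 and 0.128 CPM in green fruit and 236, 134 and 135 CPM at discoloration (log2 fold change 6.57, SE 1.13, adjusted p 0.00203). Another tested gene with this best match was not called. Galactinol synthase 1 was the best match of a riser and a faller. The riser (FtPinG0007461700.01 on chromosome 3) had 2.09, 4.22 and 3.96 CPM in green fruit and 47.5, 23.8 and 22.3 CPM at discoloration (log2 fold change 3.18, SE 0.44, adjusted p 7.53e-04). The faller (FtPinG0009147200.01 on chromosome 7) had 1.07, 26.1 and 27.5 CPM in green fruit and 0.816, 0.178 and 0.0934 CPM at discoloration, and green fruit library 1 was near the discoloration level (log2 fold change -5.67, SE 1.28, adjusted p 0.00741, 0.102 with pairs added). Stachyose synthase (FtPinG0007677900.01 on chromosome 7), one step further on, had 5.67, 0.51 and 0.791 CPM in green fruit and 69.2, 60.1 and 60.4 CPM at discoloration (log2 fold change 4.79, SE 0.78, adjusted p 0.0016). Galactinol synthase 2 and stachyose synthase were near 0 in green fruit libraries 2 and 3. Of sugar transporters 24 of 82 tested rose and 16 fell (12 and 41 on library totals), and SWEET14, a sucrose exporter in rice (FtPinG0001658200.01 on chromosome 7), had 164, 98.4 and 101 CPM in green fruit and 178, 267 and 256 CPM at discoloration (log2 fold change 0.95, SE 0.29, adjusted p 0.0275, 0.292 with pairs added and up to 0.0935 on leaving out discoloration library 2 or 3, green fruit library 2 or 3, log2 -0.00 on library totals). Discoloration library 1 was close to green fruit library 1, and libraries 2 and 3 were higher.

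Genes of fermentation and of respiration went both ways. In fermentation and anaplerosis 10 of 33 tested rose and 6 fell (4 and 16 on library totals). Alcohol dehydrogenase 1 (FtPinG0009670800.01 on chromosome 2), which regenerates NAD without oxygen, had 167, 91.1 and 96 CPM in green fruit and 686, 773 and 760 CPM at discoloration (log2 fold change 2.65, SE 0.30, adjusted p 2.53e-04). Every discoloration library was severalfold above green fruit. Pyruvate decarboxylase 2 (FtPinG0007655100.01 on chromosome 7), the step before it, had 7.15, 9.2 and 8.29 CPM in green fruit and 64.6, 62.2 and 62.8 CPM at discoloration, level within each stage (log2 fold change 2.94, SE 0.16, adjusted p 8.09e-06). A further tested gene with this best match was not called. L-lactate dehydrogenase (FtPinG0006449500.01 on chromosome 2), one of the started genes, had 0.11, 0.224 and 0.23 CPM in green fruit and 7.19, 18.2 and 17.1 CPM at discoloration. The decarboxylase and the lactate dehydrogenase were chosen after their values were seen.

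In the respiratory chain 8 of 86 tested rose and 21 fell (36 and 32 without the libraries apart), and in the citric acid and glyoxylate cycle 7 of 49 tested rose and 13 fell (3 and 1 with pairs added, 21 and 21 without the libraries apart). Malate dehydrogenase (FtPinG0003425400.01 on chromosome 6) had 673, 322 and 334 CPM in green fruit and 154, 169 and 163 CPM at discoloration, with green fruit library 1 on top (log2 fold change -1.45, SE 0.29, adjusted p 0.0043, 0.0592 with pairs added). Cytochrome b-c1 subunit 8 (FtPinG0007062400.01 on chromosome 6) had 29.9, 30.7 and 28.6 CPM in green fruit and 70.8, 124 and 128 CPM at discoloration (log2 fold change 1.86, SE 0.38, adjusted p 0.00489, 0.0711 with pairs added). Green fruit libraries were level, and discoloration library 1 was the lowest of its stage. Mitochondrial ATP synthase subunit d (FtPinG0000588800.01 on chromosome 5) had 194, 165 and 168 CPM in green fruit and 111, 134 and 129 CPM at discoloration, a call that several settings lost (log2 fold change -0.50, SE 0.17, adjusted p 0.0401, 0.27 with pairs added and up to 0.123 on leaving out discoloration library 1, 2 or 3, green fruit library 2 or 3, last-stage library 1 or 3). The gap between the stages was small. Glycolysis stayed near the background, as 18 of 82 tested rose and 21 fell (9 and 4 with pairs added, 37 and 35 without the libraries apart).

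Lipid genes split by role. In oil assembly and oil bodies 21 of 40 tested rose and 10 fell, with a median log2 fold change of 0.87 (15 and 17 on library totals). DGAT1 (FtPinG0008917300.01 on chromosome 4), which makes triacylglycerol and was chosen after its values were seen, had 22.7, 9.87 and 10.8 CPM in green fruit and 125, 121 and 118 CPM at discoloration (log2 fold change 3.07, SE 0.32, adjusted p 1.80e-04). An oleosin matching NAP-II of rapeseed, an oil body coat protein (FtPinG0007882300.01 on chromosome 3), had 2358, 903 and 908 CPM in green fruit and 11320, 10181 and 10386 CPM at discoloration (log2 fold change 2.94, SE 0.59, adjusted p 0.00426, 0.135 with pairs added). Among green fruit libraries, number 1 was above its stage and far below discoloration. Fatty acid synthesis itself was near the background, as 8 of 39 tested rose and 9 fell (2 and 2 with pairs added, 18 and 11 without the libraries apart). In fatty acid oxidation and lipase genes 7 of 20 tested rose and 1 fell (1 and 13 on library totals).

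Genes of surface lipids fell in part. Of GDSL esterases 12 of 67 tested rose and 29 fell, with a median log2 fold change of -0.80, and the APG esterase (FtPinG0006478600.01 on chromosome 1) had 87, 132 and 126 CPM in green fruit and 28.7, 31 and 33.7 CPM at discoloration (log2 fold change -1.88, SE 0.22, adjusted p 2.86e-04). The discoloration libraries were level. In wax, cutin and lipid transfer genes 14 of 53 tested rose and 17 fell (7 and 6 with pairs added). EARLI 1, a lipid transfer protein of the cell surface (FtPinG0002033500.01 on chromosome 5), had 1101, 4518 and 4333 CPM in green fruit and 452, 341 and 385 CPM at discoloration, and green fruit library 1 lay between the other green fruit libraries and discoloration (log2 fold change -3.08, SE 0.56, adjusted p 0.00271, 0.0732 with pairs added). The other tested gene with this best match (FtPinG0003983300.01) rose.

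Small heat shock proteins and LEA proteins had the highest medians of the 97 lists. Of LEA and dehydrin genes 10 of 13 tested rose and 0 fell, with a median log2 fold change of 3.78 (7 and 0 with pairs added, 10 and 2 on library totals), and of small heat shock proteins 25 of 30 tested rose and 1 fell, with a median log2 fold change of 5.19 (21 and 0 with pairs added, 22 and 4 on library totals). An 18.1 kDa class I protein (FtPinG0008433900.01 on chromosome 1) had 498, 197 and 202 CPM in green fruit and 8724, 9285 and 8850 CPM at discoloration (log2 fold change 4.90, SE 0.59, adjusted p 3.47e-04). Green fruit library 1 was above libraries 2 and 3. Among the larger HSP70, HSP90 and HSP100 genes 17 of 46 tested rose and 7 fell (15 and 27 on library totals). In the endoplasmic reticulum folding and glycosylation list, which serves secretion, 5 of 31 tested rose and 10 fell (1 and 1 with pairs added). Calreticulin (FtPinG0002193700.01 on chromosome 8), a chaperone there, had 488, 346 and 338 CPM in green fruit and 192, 242 and 248 CPM at discoloration (log2 fold change -0.78, SE 0.22, adjusted p 0.0198, 0.16 with pairs added and up to 0.0732 on leaving out discoloration library 1, 2 or 3). Library 1 of green fruit was the highest of all.

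Glutathione transferases, which detoxify reactive compounds, gave one of the broadest rises: 30 of 51 tested rose and 3 fell, with a median log2 fold change of 1.34 (18 and 0 with pairs added, 20 and 14 on library totals). Their summed level was 908 ± 69 CPM in green fruit and 2790 ± 43.8 CPM at discoloration (mean ± SD, n = 3), with the stages far apart, and the risers' median log2 fold change was 3.17. Redox protection genes were mixed, as 8 of 35 tested rose and 8 fell (1 and 3 with pairs added, 2 and 23 on library totals). 1-Cys peroxiredoxin (FtPinG0007446600.01 on chromosome 8), a seed antioxidant, had 1073, 476 and 492 CPM in green fruit and 3431, 4393 and 4384 CPM at discoloration (log2 fold change 2.58, SE 0.45, adjusted p 0.00213, 0.0882 with pairs added). The chloroplast 2-Cys peroxiredoxin BAS1 (FtPinG0008603600.01 on chromosome 1) had 108, 168 and 178 CPM in green fruit and 34.1, 38.2 and 39.1 CPM at discoloration (log2 fold change -2.02, SE 0.23, adjusted p 2.55e-04). The seed form rose and the chloroplast form fell.

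In protein turnover, autophagy genes rose by small amounts and none fell: 12 of 25 tested rose and 0 fell, with a median log2 fold change of 0.45 (2 and 0 with pairs added, 1 and 13 on library totals). ATG8i (FtPinG0009146500.01 on chromosome 7), which tags membranes for autophagy and was chosen after its values were seen, had 6.05, 3.02 and 3.04 CPM in green fruit and 17, 23.9 and 20.2 CPM at discoloration (log2 fold change 2.34, SE 0.34, adjusted p 9.62e-04). Every discoloration library was above green fruit. Proteasome genes mostly were not called, as 5 of 52 tested rose and 3 fell (1 and 44 on library totals). Ubiquitin ligases, the largest list, had 152 risers and 75 fallers of 609 (37 and 401 on library totals). Cysteine proteinase 1 (FtPinG0002253700.01 on chromosome 8), which matches a maize enzyme, had 251, 146 and 137 CPM in green fruit and 1811, 1542 and 1522 CPM at discoloration, and an inhibitor of this class, cysteine proteinase inhibitor 6 (FtPinG0002981400.01 on chromosome 6), had 93.2, 49.5 and 45.7 CPM in green fruit and 564, 459 and 468 CPM at discoloration.

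Both were far above every green fruit library (log2 fold change 3.19, SE 0.41, adjusted p 4.61e-04 for the proteinase and log2 fold change 2.98, SE 0.43, adjusted p 8.98e-04 for the inhibitor). Of protease inhibitors 14 of 32 tested rose and 7 fell, with a median log2 fold change of 1.15 (11 and 11 on library totals). A match to a flax proteinase inhibitor (FtPinG0001917900.01 on chromosome 1) went the other way with 732, 63.1 and 65 CPM in green fruit and 4.23, 6.31 and 6.87 CPM at discoloration (log2 fold change -5.62, SE 0.99, adjusted p 0.00229). In green fruit, library 1 was far above its stage. Subtilisins and carboxypeptidases fell more often, as 10 of 73 tested rose and 27 fell. Of aspartic proteases 3 of 20 tested rose and 7 fell, and ASPARTIC PROTEASE IN GUARD CELL 2 (FtPinG0003713100.01 on chromosome 2) had 72, 129 and 144 CPM in green fruit and 52.9, 56.1 and 55.4 CPM at discoloration (log2 fold change -1.07, SE 0.27, adjusted p 0.0118, 0.165 with pairs added).

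In lists of cell division fallers outnumbered risers, but not every summed level was lower. Among cyclins and kinases of the cell cycle 9 of 67 tested rose and 35 fell, with a median log2 fold change of -0.93. In DNA replication 5 of 64 tested rose and 28 fell, in histones 5 of 65 tested rose and 40 fell (0 and 23 with pairs added, 2 and 57 on library totals), and in kinesins and microtubule proteins 10 of 131 tested rose and 77 fell. Summed levels were 4517, 2236 and 2257 CPM in green fruit and 3097, 3186 and 3165 CPM at discoloration for histones, and 1315 ± 155 CPM in green fruit and 1433 ± 40.3 CPM at discoloration (mean ± SD, n = 3) for cyclins and kinases. Both sums overlapped between the stages. Kinesins and microtubule proteins summed to 4733 ± 549 CPM in green fruit and 2160 ± 95.3 CPM at discoloration. Tubulin alpha (FtPinG0005325300.01 on chromosome 3) had 1034, 1446 and 1541 CPM in green fruit and 125, 199 and 203 CPM at discoloration, and every green fruit library was several-fold above discoloration (log2 fold change -2.93, SE 0.36, adjusted p 3.76e-04). Against that fall, histone H1.2 (FtPinG0005744000.01 on chromosome 5), a linker histone, had 143, 86.3 and 81.2 CPM in green fruit and 305, 287 and 300 CPM at discoloration (log2 fold change 1.52, SE 0.26, adjusted p 0.0021, 0.0745 with pairs added). The first green fruit library was nearest to discoloration. Histone H1.2 matched 3 of the 5 histones that rose.

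Actin and myosin genes were close to the background, as 19 of 120 tested rose and 27 fell (9 and 3 with pairs added). Here 2 genes with the same best match, Actin-7, moved in opposite directions. The first (FtPinG0002124000.01 on chromosome 3) had 342, 218 and 220 CPM in green fruit and 1005, 940 and 916 CPM at discoloration (log2 fold change 1.88, SE 0.30, adjusted p 0.0015, 0.0673 with pairs added). The second (FtPinG0001671700.01 on chromosome 7) had 444, 382 and 377 CPM in green fruit and 234, 223 and 229 CPM at discoloration (log2 fold change -0.81, SE 0.18, adjusted p 0.00762, 0.174 with pairs added). Libraries of a stage were close in both genes, except that green fruit library 1 was the highest of its stage. Chromatin modifiers had 12 risers and 23 fallers among 105 tested.

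Light reaction genes had the largest share of fallers of the 97 lists. In the light reactions 1 of 56 tested rose and 43 fell, with a median log2 fold change of -1.84 (0 and 19 with pairs added, 0 and 54 on library totals), and in plastid ribosomes 0 of 47 tested rose and 33 fell, with a median log2 fold change of -1.14 (0 and 8 with pairs added, 0 and 45 on library totals). Oxygen-evolving enhancer protein 2 (FtPinG0006276200.01 on chromosome 3) had 161, 441 and 527 CPM in green fruit and 85.1, 87.7 and 86.9 CPM at discoloration, green fruit library 1 being the lowest of its stage (log2 fold change -2.12, SE 0.40, adjusted p 0.00316, 0.0711 with pairs added). Rubisco small chain 6 (FtPinG0008981900.01 on chromosome 7) had 433, 1258 and 1258 CPM in green fruit and 195, 159 and 162 CPM at discoloration with the same order (log2 fold change -2.51, SE 0.47, adjusted p 0.00304, 0.074 with pairs added). In carbon fixation 4 of 27 tested rose and 11 fell (2 and 1 with pairs added), and cytosolic ribulose-phosphate 3-epimerase (FtPinG0005496500.01 on chromosome 7), a sugar-phosphate enzyme, had 13.9, 15.8 and 15.3 CPM in green fruit and 28.8, 30.2 and 27.9 CPM at discoloration (log2 fold change 0.95, SE 0.14, adjusted p 8.64e-04, log2 -0.05 on library totals). Libraries were level within each stage.

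Chlorophyll genes moved in both directions. In the chlorophyll list 7 of 30 tested rose and 14 fell, with a median log2 fold change of -0.78 (4 and 3 with pairs added, 1 and 23 on library totals). Protochlorophyllide reductase (FtPinG0002562700.01 on chromosome 1), a late step of synthesis, had 40.4, 50.7 and 45.8 CPM in green fruit and 7.55, 9.55 and 10.1 CPM at discoloration (log2 fold change -2.33, SE 0.19, adjusted p 5.45e-05). Magnesium-protoporphyrin cyclase (FtPinG0009720600.01 on chromosome 7), an earlier step, had 26.7, 70.4 and 72.5 CPM in green fruit and 13, 10.9 and 10.2 CPM at discoloration (log2 fold change -2.32, SE 0.35, adjusted p 0.00112). Each discoloration library was far below green fruit for both enzymes. Pheophytinase, which takes the phytol tail off chlorophyll freed of its magnesium, was the best match of 5 of the 7 risers. The gene with the highest FPKM among them (FtPinG0009382300.01 on chromosome 1) had 35.6, 35.5 and 33.4 CPM in green fruit and 77.9, 75.8 and 72.1 CPM at discoloration (log2 fold change 1.11, SE 0.14, adjusted p 4.19e-04, log2 0.12 on library totals).

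A second pheophytinase match (FtPinG0008999900.01 on chromosome 7) had 25.1, 22.1 and 22 CPM in green fruit and 108, 63.8 and 65.8 CPM at discoloration, discoloration library 1 being the highest (log2 fold change 1.78, SE 0.25, adjusted p 7.29e-04). STAY-GREEN 1 (FtPinG0006260200.01 on chromosome 3), which removes the magnesium in Arabidopsis, had 23.3, 19.8 and 20 CPM in green fruit and 51.3, 37 and 32.9 CPM at discoloration (log2 fold change 0.94, SE 0.18, adjusted p 0.00325, 0.0606 with pairs added, log2 -0.05 on library totals). Discoloration library 1 was the highest. On library totals, STAY-GREEN 1 was thus not higher, and the first pheophytinase was not called. Apart from that pheophytinase, the chlorophyll genes named here were chosen after their values were seen. Carotenoid genes lay near the background, with 4 risers and 2 fallers among 22 tested (2 and 16 on library totals, 6 and 11 without the libraries apart).

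Fallers outnumbered risers in lists of the growing cell wall. In expansins and xyloglucan enzymes 11 of 78 tested rose and 39 fell, with a median log2 fold change of -0.82, in xylan and secondary wall genes 0 of 34 tested rose and 18 fell, and in pectin genes 10 of 105 tested rose and 41 fell. Expansin-A15, which loosens walls (FtPinG0004679600.01 on chromosome 5), had 47.2, 205 and 222 CPM in green fruit and 0.408, 2.66 and 2.57 CPM at discoloration (log2 fold change -6.38, SE 0.86, adjusted p 6.15e-04). XTH23, a xyloglucan endotransglucosylase (FtPinG0003957900.01 on chromosome 2), had 24, 3.75 and 4.16 CPM in green fruit and 623, 535 and 525 CPM at discoloration against the trend of its list (log2 fold change 5.72, SE 0.76, adjusted p 5.70e-04). It was low in green fruit libraries 2 and 3. Of laccases, which polymerise lignin, 2 of 19 tested rose and 11 fell. In cellulose synthases 5 of 33 tested rose and 11 fell (4 and 4 with pairs added) and in beta-glucan and callose genes 19 of 112 tested rose and 40 fell.

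Class III peroxidases and the phenylpropanoid list had more risers on the TMM scale: 13 of 36 tested rose and 9 fell (9 and 15 on library totals), and 24 of 70 tested rose and 11 fell (11 and 26 on library totals). Callose-binding protein 3 of plasmodesmata (FtPinG0009585500.01 on chromosome 3) had 88.6, 56.5 and 50.6 CPM in green fruit and 233, 180 and 180 CPM at discoloration (log2 fold change 1.60, SE 0.25, adjusted p 0.00133, 0.0526 with pairs added). Cinnamyl alcohol dehydrogenase 9 (FtPinG0001671900.01 on chromosome 7) had 332, 98.7 and 95.7 CPM in green fruit and 40.7, 74.4 and 74 CPM at discoloration, a call that depended on the setting (log2 fold change -1.48, SE 0.47, adjusted p 0.0338, 0.0875 with pairs added and up to 0.115 on leaving out discoloration library 1, 2 or 3, green fruit library 1, last-stage library 1 or 3). Among green fruit libraries, number 1 was far above all other libraries.

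Several lists of specialised metabolism had more risers than fallers on the TMM scale. Core flavonoid enzymes had 25 risers of 57 and 1 faller, with a median log2 fold change of 0.87 (10 and 1 with pairs added, 12 and 12 on library totals). The faller was a dihydroflavonol 4-reductase match (FtPinG0006124000.01 on chromosome 3), an enzyme on the way to anthocyanins and tannins, with 55.8, 222 and 222 CPM in green fruit and 20.5, 17.5 and 17.6 CPM at discoloration (log2 fold change -3.17, SE 0.45, adjusted p 8.54e-04). The discoloration libraries were level and low. Another of the 3 tested genes with this best match (FtPinG0008425800.01) rose. Chalcone isomerase 3 (FtPinG0008656900.01 on chromosome 4), near the start of the pathway, had 378, 534 and 514 CPM in green fruit and 767, 802 and 825 CPM at discoloration, and its call was lost under several settings (log2 fold change 0.75, SE 0.25, adjusted p 0.0421, 0.279 with pairs added and up to 0.114 on leaving out discoloration library 1, 2 or 3, green fruit library 2 or 3, last-stage library 1 or 3, log2 -0.26 on library totals). Green fruit library 1 was the lowest of all. The lists of secondary metabolism together took 1.46 ± 0.364% of the counts in green fruit and 1.06 ± 0.0622% at discoloration. These are shares of total counts without TMM factors, a different scale from the calls.

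Of glycosyltransferases 45 of 121 tested rose and 19 fell (33 and 52 on library totals), of cytochromes P450 41 of 102 tested rose and 22 fell (28 and 43 on library totals), and of MATE transporters, which carry flavonoids and other compounds out of the cytosol, 21 of 59 tested rose and 8 fell (13 and 22 on library totals). UGT73B4 (FtPinG0007326000.01 on chromosome 4), which glycosylates phenolic compounds in Arabidopsis, had 107, 116 and 126 CPM in green fruit and 427, 347 and 343 CPM at discoloration (log2 fold change 1.68, SE 0.20, adjusted p 3.40e-04). CYP78A4 (FtPinG0008315000.01 on chromosome 2), of a family that sets organ and seed size in Arabidopsis, had 94.3, 177 and 189 CPM in green fruit and 58, 62.6 and 62.1 CPM at discoloration (log2 fold change -1.33, SE 0.27, adjusted p 0.00408, 0.0908 with pairs added). Library 1 of green fruit was close to discoloration. Terpene synthesis had 7 risers and 6 fallers among 34 tested (4 and 23 on library totals, 13 and 15 without the libraries apart), and its risers had a median log2 fold change of 5.60. Beta-glucosidases fell more often, as 7 of 35 tested rose and 12 fell (6 and 5 with pairs added).

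Many chitinases and small defence proteins rose, though the summed chitinase level was 288, 899 and 934 CPM in green fruit and 435, 430 and 426 CPM at discoloration. Of chitinases 11 of 17 tested rose and 2 fell, with a median log2 fold change of 1.72 (7 and 1 with pairs added, 7 and 4 on library totals), and of antimicrobial peptides and pathogenesis-related proteins 27 of 61 tested rose and 14 fell, with a median log2 fold change of 0.81 (15 and 6 with pairs added, 23 and 22 on library totals). Antimicrobial peptide 1 of common buckwheat (FtPinG0004981100.01 on chromosome 6) had 214, 11.9 and 2.32 CPM in green fruit and 18114, 15200 and 15954 CPM at discoloration, with green fruit library 1 far above its stage (log2 fold change 7.75, SE 1.72, adjusted p 0.00689, 0.0732 with pairs added). An endochitinase match (FtPinG0008881000.01 on chromosome 6) had 0.0275, 1.71 and 0 CPM in green fruit and 35.3, 47 and 56.9 CPM at discoloration and 3416, 9852 and 3373 CPM at initial maturity (log2 fold change 6.25, SE 1.34, adjusted p 0.00582). Members of such families can share reads with close copies, so counts of single members are uncertain.

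Germin-like protein subfamily 2 member 4 (FtPinG0005408100.01 on chromosome 1), a secreted wall protein, had 5.34, 73.4 and 81.9 CPM in green fruit and 1.53, 1.69 and 1.5 CPM at discoloration (log2 fold change -5.09, SE 0.86, adjusted p 0.0019). It was low in green fruit library 1 as well. A defensin-like protein (FtPinG0009448700.01 on chromosome 6) had 60.1, 68.7 and 67.8 CPM in green fruit and 50.7, 38.4 and 36.1 CPM at discoloration (log2 fold change -0.65, SE 0.18, adjusted p 0.0196, 0.272 with pairs added and up to 0.0873 on leaving out discoloration library 2 or 3, green fruit library 2 or 3). The stages were close. Germins and lectins had 5 risers and 4 fallers among 15 tested (1 and 1 with pairs added, 1 and 7 on library totals). Intracellular disease resistance proteins stayed out of the rise, as 11 of 108 tested rose and 11 fell (3 and 70 on library totals, 20 and 48 without the libraries apart), below the background in both directions.

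Among transporters, nutrient carriers had more risers on the TMM scale and water channels exchanged members. Of phosphate, sulfate and nitrate transporters 19 of 54 tested rose and 7 fell, with a median log2 fold change of 0.57 (15 and 24 on library totals), and of amino acid and peptide transporters 50 of 155 tested rose and 23 fell (19 and 71 on library totals). Of aquaporins 4 of 32 tested rose and 13 fell, with a median log2 fold change of -0.81. Their summed level went the other way, at 3210 ± 167 CPM in green fruit and 8180 ± 777 CPM at discoloration. TIP3-2 (FtPinG0005321900.01 on chromosome 2), the water channel of storage vacuoles in seeds, had 1579, 297 and 327 CPM in green fruit and 7416, 6164 and 6070 CPM at discoloration (log2 fold change 3.16, SE 0.71, adjusted p 0.0074, 0.12 with pairs added). TIP1-1 (FtPinG0000553000.01 on chromosome 5), the channel of the large vacuole of growing cells, had 145, 417 and 454 CPM in green fruit and 0.561, 10.1 and 12 CPM at discoloration (log2 fold change -5.49, SE 1.00, adjusted p 0.00265). Discoloration library 1 was near 0.

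Proton pumps had 6 risers and 18 fallers among 53 tested (4 and 3 with pairs added). Subunit a3 of the vacuolar proton pump (FtPinG0008716700.01 on chromosome 8) had 73.8, 68.2 and 66.7 CPM in green fruit and 114, 144 and 150 CPM at discoloration (log2 fold change 0.97, SE 0.17, adjusted p 0.00229, 0.101 with pairs added, log2 -0.01 on library totals). Its 16 kDa proteolipid (FtPinG0001624100.01 on chromosome 1) had 81.6, 66.2 and 63.7 CPM in green fruit and 35.8, 39.3 and 36.8 CPM at discoloration (log2 fold change -0.92, SE 0.19, adjusted p 0.00436, 0.0722 with pairs added). The subunits thus moved in opposite directions. For zinc, iron and copper transporters the counts were 11 risers and 3 fallers among 45 tested (3 and 28 on library totals), for potassium and calcium channels 18 risers and 13 fallers among 74 tested (4 and 47 on library totals, 24 and 32 without the libraries apart), and for ABC transporters 19 risers and 23 fallers among 120 tested (9 and 8 with pairs added).

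Signalling lists lay near the background. Receptor kinases had 98 risers and 103 fallers among 432 tested, calcium sensors and kinases 27 risers and 18 fallers among 120 tested (4 and 76 on library totals), and MAP kinases 9 risers and 5 fallers among 40 tested (1 and 2 with pairs added, 1 and 26 on library totals). CIPK14, a calcium-regulated kinase (FtPinG0001018400.01 on chromosome 1), had 27.6, 61.8 and 62.1 CPM in green fruit and 129, 93 and 100 CPM at discoloration (log2 fold change 1.09, SE 0.33, adjusted p 0.0272, 0.111 with pairs added and up to 0.0876 on leaving out discoloration library 1 or 3, log2 0.05 on library totals). MPK19 (FtPinG0003584300.01 on chromosome 7) had 123, 76.7 and 77.6 CPM in green fruit and 209, 182 and 178 CPM at discoloration (log2 fold change 1.03, SE 0.22, adjusted p 0.00623, 0.14 with pairs added, log2 0.07 on library totals). In green fruit, library 1 was nearer to discoloration than the others. A calmodulin (FtPinG0001810700.01 on chromosome 7) had 73.9, 68.5 and 68.4 CPM in green fruit and 27.9, 38.4 and 39.9 CPM at discoloration (log2 fold change -0.99, SE 0.17, adjusted p 0.00188). Green fruit libraries were level. Phototropin-1, a blue light receptor (FtPinG0001388600.01 on chromosome 1), had 147, 165 and 169 CPM in green fruit and 21.4, 41.7 and 45.3 CPM at discoloration, every green fruit library being far above discoloration (log2 fold change -2.15, SE 0.30, adjusted p 6.99e-04).

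Lists of gene expression had more fallers than risers, apart from splicing, and for cytosolic ribosomal proteins this turned without the libraries that stand apart. Of pentatricopeptide proteins, which process RNA of plastids and mitochondria, 12 of 466 tested rose and 148 fell, with a median log2 fold change of -0.58 (3 and 4 with pairs added, 1 and 430 on library totals). Against the direction of this family, the match to At5g04780 (FtPinG0000944700.01 on chromosome 5) had 35.6, 10.2 and 9.67 CPM in green fruit and 471, 409 and 385 CPM at discoloration (log2 fold change 4.51, SE 0.52, adjusted p 3.08e-04). Every discoloration library was far above green fruit. Cytosolic ribosomal proteins had 4 risers and 27 fallers among 284 tested, a lower share of fallers than the 19.9% of all genes (166 and 58 without the libraries apart), and translation factors 4 risers and 18 fallers among 88 tested.

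L7-1 of the large ribosomal subunit (FtPinG0001402400.01 on chromosome 1) had 70.1, 47.8 and 47.1 CPM in green fruit and 83.2, 122 and 120 CPM at discoloration (log2 fold change 0.98, SE 0.28, adjusted p 0.0221, 0.231 with pairs added and up to 0.0768 on leaving out discoloration library 2 or 3, green fruit library 2 or 3, log2 0.02 on library totals). Acidic ribosomal protein P3 (FtPinG0002089400.01 on chromosome 7) had 267, 185 and 190 CPM in green fruit and 104, 133 and 129 CPM at discoloration (log2 fold change -0.81, SE 0.21, adjusted p 0.0136, 0.134 with pairs added and up to 0.0543 on leaving out discoloration library 1). Initiation factor 5A-1 (FtPinG0004236800.01 on chromosome 5) had 159, 109 and 112 CPM in green fruit and 69.9, 85 and 82.7 CPM at discoloration (log2 fold change -0.68, SE 0.21, adjusted p 0.0277, 0.164 with pairs added and up to 0.0951 on leaving out discoloration library 1, 2 or 3). These differences are small and each call was lost under some setting. Splicing genes had 12 risers and 5 fallers among 94 tested (4 and 84 on library totals), RNA helicases 4 risers and 15 fallers among 83 tested (1 and 0 with pairs added), and tRNA synthetases 5 risers and 16 fallers among 61 tested (2 and 0 with pairs added).

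Within some best-match names, one gene rose while another fell. Among 4035 names with 2 or more tested genes, 318 had a riser and a faller that each moved by at least 1 on the log2 scale, and in 279 of these the leading pair had no overlap of libraries in either gene. With pairs added 72 names were in this class, and 478 were in it without the libraries that stand apart. The 6 names whose lesser gene had the highest FPKM are shown in the plot of pairs. A shared best match does not show that the genes have the same function. Some names given above with a single gene, such as endoglucanase 17, calmodulin, MPK19 and the flax proteinase inhibitor, are among these 279.

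Non-specific lipid-transfer protein 2, a small secreted lipid carrier, had 5 tested genes. The riser (FtPinG0008306500.01 on chromosome 2) had 119, 38.6 and 38.7 CPM in green fruit and 418, 552 and 583 CPM at discoloration (log2 fold change 2.98, SE 0.49, adjusted p 0.00171). The faller (FtPinG0001350900.01 on chromosome 5) had 241, 355 and 354 CPM in green fruit and 39.8, 65.6 and 68.5 CPM at discoloration (log2 fold change -2.45, SE 0.30, adjusted p 3.76e-04). The first green fruit library was nearer to discoloration in both genes. Asparagine synthetase makes a transport form of nitrogen. One gene (FtPinG0008700200.01 on chromosome 1) had 4.51, 1.22 and 0.689 CPM in green fruit and 473, 360 and 366 CPM at discoloration (log2 fold change 7.55, SE 0.72, adjusted p 1.17e-04). The other (FtPinG0009650700.01 on chromosome 2) had 39.4, 110 and 116 CPM in green fruit and 15.3, 28.9 and 26.3 CPM at discoloration (log2 fold change -1.91, SE 0.40, adjusted p 0.00514, 0.0701 with pairs added). The first was low in each green fruit library, and the second was lower in each discoloration library.

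Feruloyl CoA ortho-hydroxylase 1 makes the coumarin scopoletin in Arabidopsis. Its riser (FtPinG0002673600.01 on chromosome 6) had 76.5, 32 and 31.6 CPM in green fruit and 159, 177 and 184 CPM at discoloration (log2 fold change 1.89, SE 0.33, adjusted p 0.0023, 0.0592 with pairs added). Its faller (FtPinG0003678400.01 on chromosome 2) had 141, 634 and 633 CPM in green fruit and 24.6, 45.7 and 47.6 CPM at discoloration (log2 fold change -3.58, SE 0.71, adjusted p 0.00401, 0.0562 with pairs added). Among green fruit libraries, number 1 again stood nearer to discoloration. For abscisic stress-ripening protein 1, a small water-binding protein of tomato, the riser (FtPinG0005809300.01 on chromosome 1) had 113, 77.9 and 75.6 CPM in green fruit and 159, 211 and 211 CPM at discoloration (log2 fold change 1.12, SE 0.34, adjusted p 0.027, 0.215 with pairs added and up to 0.086 on leaving out discoloration library 2 or 3, green fruit library 2 or 3, log2 0.16 on library totals). The faller (FtPinG0002757300.01 on chromosome 7) had 676, 2130 and 2185 CPM in green fruit and 294, 394 and 411 CPM at discoloration (log2 fold change -2.18, SE 0.44, adjusted p 0.0045, 0.0925 with pairs added). The riser of this pair was not called under several settings.

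The lysosomal thiol reductase name, defined in mammals, had a riser (FtPinG0005989500.01 on chromosome 1) with 121, 50.4 and 47 CPM in green fruit and 268, 216 and 209 CPM at discoloration (log2 fold change 1.66, SE 0.36, adjusted p 0.00635, 0.0992 with pairs added). Its faller (FtPinG0003936200.01 on chromosome 2) had 2880, 203 and 207 CPM in green fruit and 25.2, 24 and 22.5 CPM at discoloration, and green fruit library 1 was again more than 10-fold above its stage (log2 fold change -5.52, SE 1.06, adjusted p 0.00346). HIPP26, a metal-binding protein, had a riser (FtPinG0003147600.01 on chromosome 1) with 236, 81.7 and 82.3 CPM in green fruit and 292, 312 and 316 CPM at discoloration. That call was among the least stable (log2 fold change 1.20, SE 0.40, adjusted p 0.0404, 0.296 with pairs added and up to 0.121 on leaving out discoloration library 1, 2 or 3, green fruit library 2 or 3, last-stage library 1 or 3, log2 0.28 on library totals). Its faller (FtPinG0009618600.01 on chromosome 3) had 30.3, 78.3 and 78.7 CPM in green fruit and 2.45, 9.02 and 10 CPM at discoloration (log2 fold change -3.12, SE 0.54, adjusted p 0.00208).

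**Figure D5:**
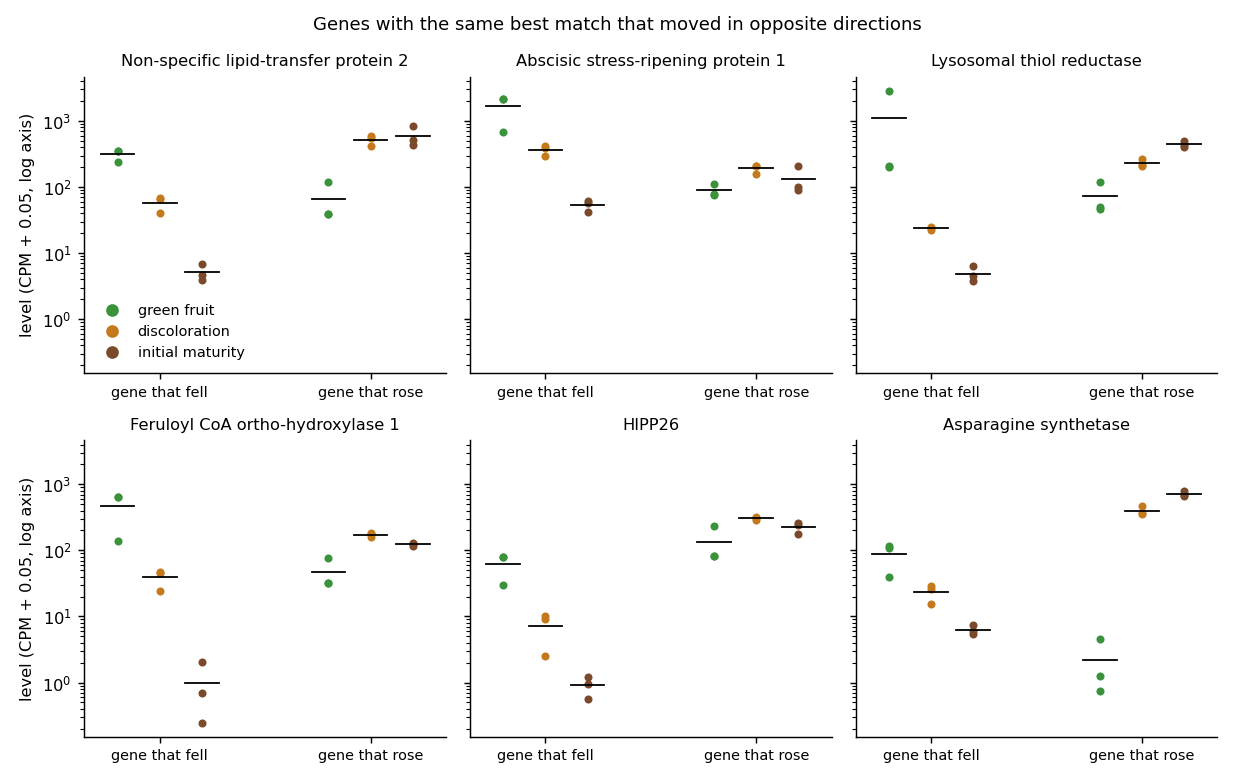
Levels by library (y axis, CPM plus 0.05, log scale) of the gene that fell and the gene that rose for 6 best-match names, in green fruit, discoloration and initial maturity. Points are libraries and bars are means of 3; the asparagine synthetase riser goes from under 5 CPM to at least 360 CPM.

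The changes were spread over the genome. The share of tested genes that rose lay between 18.2% and 20% on the 8 chromosomes, and the share that fell between 18.8% and 21.3%. Genes without a Swiss-Prot match rose in 18.5% and fell in 17.3% of 4556 tested. The authors' own genes outside the gene models rose in 22.3% and fell in 11.2% of 1487. Of 27897 genes in the authors' deposited table, 4874 had an adjusted p under 0.05 for this pair of stages, and 4682 of them were also called here.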

How the data were processed

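RNA of whole seeds was sequenced with an unstranded kit, per the labels' protocols, so reads of overlapping antisense genes cannot be told apart and near-identical copies are uncertain. Bowtie2 2.0.6 and TopHat2 2.0.12 are named in the submitters' processing notes, without a role or order. The counting program and annotation release were not named there. The authors deposited raw counts per gene, FPKM values made from them, gene lengths, and tables of their own comparisons with p-values and adjusted p-values; those steps are as the file headers name them. In the deposited files, 2 variant tables with 18 sample columns that match no label were not used.

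From the counts, genes were filtered with filterByExpr (minimum count 10), scaled by TMM and tested in edgeR 4.0.16 (glmQLFit, glmQLFTest, R 4.3.3, limma 3.58.1) with all 9 libraries in 1 fit and Benjamini-Hochberg adjustment at 0.05. The biological coefficient of variation was 0.289. SE is the log2 fold change divided by the root of F. Scripts were tested on simulated data. Counting error is small at these depths for most genes, and library spread sets the precision.

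The members and gene lists were chosen with earlier results of these data known, and list patterns were trimmed by gene names. Lists are patterns on best-match names. Named genes had a Swiss-Prot match, adjusted p under 0.05 and no overlap of libraries. In each group of lists the 2 with the highest mean FPKM in each direction were taken, 4 for hormones and transcription factors, with at most 1 per list and direction. Of the started and stopped genes 6 each were named by FPKM, and 6 exchange names. Other genes were chosen after their values were seen. Alternatives were DESeq2 1.42.0, other size factors, no filter, 6 libraries, a replicate block, close pairs added, libraries left out, other thresholds and FPKM.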

Additional observations from a re-analysis of the deposited data

How the results depend on the processing

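With close pairs added together, 1717 genes were higher and 1160 lower, 1702 and 1158 of them called the same way in the main test; past 1 on the log2 scale there were 1707 and 1156, and 72 names had both a riser and a faller. Without the libraries that stand apart, the counts were 8858, 8872 and 478 names. Adding pairs leaves 6 libraries in the fit. On library totals alone 1830 genes were higher and 16137 lower, 1456 and 11720 past 1. Of the genes called in the main test, 389 were called in the opposite direction under that scaling. Under that scaling the log2 fold changes of AHP1 (-0.03), NF-YC9 (-0.11), SWEET14 (-0.00), ribulose-phosphate 3-epimerase (-0.05), chalcone isomerase 3 (-0.26), vacuolar pump subunit a3 (-0.01), STAY-GREEN 1 (-0.05) and the branching enzyme riser (-0.31) were below 0. Started genes numbered 22 by deposited FPKM, 28 on library totals and 134 without the libraries that stand apart. Stopped genes numbered 14 at under 1 and at least 10 CPM, 54 by FPKM, 55 on library totals and 91 without those libraries. Leaving out each library in turn gave 3479 to 6175 higher and 3151 to 6261 lower genes, 2723 to 3799 and 2652 to 4133 past 1, 229 to 451 names, 46 to 115 started and 22 to 81 stopped genes. The cause of these differences was not tested. Of 126 named genes, 55 lost their call with pairs added, 17 on library totals, 0 without the libraries that stand apart, 0 to 18 without a single library, 6 in a fit of the 6 libraries, 3 without the filter, 2 with median-of-ratios factors and 0 of 114 in DESeq2. The last 3 settings and the 6-library fit kept the other counts of calls within 1.5 times of the main ones. DESeq2 gave no adjusted p for the rest of the 126, so it did not check their calls. Among them were NF-YB6, NF-YB9, RADIALIS-like 1, granule-bound starch synthase 1 and the branching enzyme gene FtPinG0000080700.01. Galactinol synthase 2, stachyose synthase and the first HSFA2 match were others. Samples with the same replicate number did not deviate together (correlations -0.00503, 0.00875 and -0.0129). These are deviations from stage means in which library 1 stands apart, so they cannot decide whether the numbers pair the samples. A fit with the replicate block called 4317 genes higher and 4168 lower, and 6 named genes lost their call. Depth does not limit the named genes, apart from those near 0 in a stage, whose fold changes rest on few counts.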
